A study of Mus musculus with 12 samples.

Results

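The genes described here make and sense prostaglandins and leukotrienes, and were taken as a fixed list of 10: the cyclooxygenase genes Ptgs1 and Ptgs2, the prostaglandin E synthase gene Ptges, the prostaglandin E2 receptor genes Ptger2 and Ptger4, and the leukotriene genes Alox5, Alox5ap, Lta4h, Ltc4s and Cysltr1. Each was measured by the probe sets that the platform annotation gives to that symbol alone, and the probe set of the highest mean over all arrays stood for the gene. Of the 10 genes, 9 had such a probe set, among 18193 genes with one, and 8 were bright enough to be tested, among 10929 tested genes. Ltc4s was measured but not tested, and Ptgs1 was not analysed here because no probe set was assigned to it.

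The arrays hold RNA of dendritic cells (DC), sorted into 4 populations, from lungs of male C57BL/6 mice, 8 to 12 weeks old and labelled C57BL/6J as to strain. All mice had received 100 ng of lipopolysaccharide, a bacterial cell wall component, and 100 ug of the egg protein ovalbumin in 50 ul into the airway 16 h earlier, so no group is untreated and no value shows what the treatment changed. Conventional DC (cDC) were either CD103+ or, among CD11bhi cells, CD14lo. Monocyte-derived DC (moDC) were CD11bhi and either CD14hi or Ly6Chi, the labels giving the latter as inf.moDCs. Each is named here by its own marker, as in CD14lo cDC. Each population had 3 biological replicates, each from 20 mice, and these 3 arrays limit the precision. Signal here means the linear MAS5 brightness of a probe set, in arbitrary units, and the median of an array lay between 72.4 and 109. A lower signal can come from fewer cells that hold the message or from less of it in each cell, and sorted bulk RNA does not tell these apart.

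Cyclooxygenases turn arachidonic acid, which phospholipases release from membranes, into the precursor of all prostaglandins. Ptgs2 encodes the form that inflammatory stimuli induce, and Ptges the enzyme that makes prostaglandin E2 from that precursor. Ptger2 and Ptger4 encode receptors for prostaglandin E2 that raise cyclic AMP, and signals through Ptger4 are known to aid the migration of skin DC. In the other branch 5-lipoxygenase (Alox5), helped by its activating protein (Alox5ap), makes leukotriene A4, which Lta4h turns into leukotriene B4 and Ltc4s into the cysteinyl leukotrienes that the receptor Cysltr1 binds.

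Promoters of 8 of the 10 genes were found in the RefSeq promoter table of build GRCm38.p6. Those of Ptgs2 and Ptges are printed because the mean of both genes was highest in Ly6Chi moDC, and that of Ptger4 because its mean was lowest there. Each is the 250 bases before the annotated start, 5′ to 3′, and capitals mark matches, on either strand, to any of the motifs searched.
Ptgs2 promoter, GRCm38.p6 chr1:150099781-150100030, plus strand: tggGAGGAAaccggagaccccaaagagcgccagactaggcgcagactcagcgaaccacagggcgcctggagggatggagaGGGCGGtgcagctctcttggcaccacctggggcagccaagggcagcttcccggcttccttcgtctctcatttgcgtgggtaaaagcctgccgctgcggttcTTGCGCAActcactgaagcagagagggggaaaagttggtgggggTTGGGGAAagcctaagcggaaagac
Ptges promoter, GRCm38.p6 chr2:30903298-30903547, minus strand: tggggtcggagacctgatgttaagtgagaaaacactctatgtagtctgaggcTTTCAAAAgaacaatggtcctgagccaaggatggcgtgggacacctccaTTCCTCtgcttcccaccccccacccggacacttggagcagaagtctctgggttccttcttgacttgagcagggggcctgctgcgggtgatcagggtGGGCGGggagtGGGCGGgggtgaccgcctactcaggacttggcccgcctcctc
Ptger4 promoter, GRCm38.p6 chr15:5244188-5244437, minus strand: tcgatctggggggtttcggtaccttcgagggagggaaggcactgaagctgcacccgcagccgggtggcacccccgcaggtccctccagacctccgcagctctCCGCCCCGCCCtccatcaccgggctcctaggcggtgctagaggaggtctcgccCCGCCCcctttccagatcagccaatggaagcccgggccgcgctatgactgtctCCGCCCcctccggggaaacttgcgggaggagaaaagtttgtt

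All motifs were searched on both strands. The TATA box was taken as TATAAA, and the E-box motif as CACGTG. The cAMP response element was represented by its part TGACG. A C/EBP-type motif was written TTNNGNAA, and a PU.1-type motif GAGGAA. The GC box was taken as GGGCGG. An NF-kappaB-type motif of 3 G, any 3 bases, 2 T and 2 C was searched as well. The Ptgs2 window held TTNNGNAA 62 to 69 bases before the start, where it reads the same way on both strands, and again 18 to 25 bases before it. It also held GAGGAA and GGGCGG, and no matches overlapped. The Ptges window held 1 TTNNGNAA, 1 GAGGAA and 2 GGGCGG, and the Ptger4 window 4 GGGCGG, 2 of which share 1 base. Over all 32851 promoter windows of this length, TTNNGNAA was found in 36.8%, GGGCGG in 32.7% and GAGGAA in 23.3%, so these matches are common. TATAAA (12.4% of all windows), CACGTG (6.02%), TGACG (17.8%) and the NF-kappaB-type motif (4.65%) were not among the letters of these 3 windows. A match is a description of the letters and not of a bound factor.

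The sort markers that could be checked went with the labels. Mean Itgae, which encodes CD103, was 15178 in CD103+ cDC and at most 855 elsewhere, mean Itgam (CD11b) was 50.7 in CD103+ cDC and 1115 to 2188 in the others, and mean Cd14 was 968 and 1537 in the conventional and 11669 and 10836 in the monocyte-derived populations. Probe sets for Ly6c1 and Ly6c2 were not matched, so the Ly6C sort was not checked. All 5 general DC markers listed were above the array median on all arrays, although Flt3 and Zbtb46 were at 113 and 189 in the Ly6Chi moDC. The summed signal of 6 monocyte-derived markers was 4734 to 6527 in CD103+ cDC and 22184 to 24740 in CD14lo cDC. It was 45921 to 54670 in CD14hi moDC and 49952 to 54185 in Ly6Chi moDC, so CD14lo cDC lay in between. The 4 CD11b+ cDC markers summed to 1285 to 2458, 17842 to 22841, 16550 to 19944 and 10671 to 12255 in that order of populations. None of the 9 mast cell and basophil markers was above the array median on all 3 arrays of any population, and of 5 eosinophil markers 1 was, Siglecf, at means of 274 to 436. Of 6 neutrophil markers with a probe set, 1, 3, 3 and 3 were above the median from CD103+ cDC to Ly6Chi moDC, and their summed signal ran from 336 to 1863, 890 to 1290, 987 to 2180 and 3925 to 4220. Cxcr2, Camp and Ngp were at most 77.5 on average. The 8 alveolar macrophage markers summed to 1137 to 4971 in CD103+ cDC, 1375 to 8724 for CD14lo cDC, 2383 to 5000.0 for CD14hi moDC and 6468 to 8599 for Ly6Chi moDC, with 4, 4, 6 and 5 of them above the median. Among them Chil3 averaged 6685 in Ly6Chi moDC and at most 1642 elsewhere, and Pparg 15 in CD103+ cDC and 361 to 600.3 elsewhere. Marco, Fabp1, Car4, Krt79 and Cidec instead had their lowest mean in Ly6Chi moDC, as Marco with 98.0 against 312 to 667 elsewhere. The part of these cells in the results was not tested. The summed signal of 7 lung epithelial markers was 4609 to 8923 in CD103+ cDC and at most 4262 elsewhere. The Gapdh 3′ to 5′ signal ratio, a measure of RNA quality, was 3.26, 1.68 and 3.27 on the CD103+ cDC arrays and 1.48 to 2.29 on the 9 others.

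**Figure D1:**
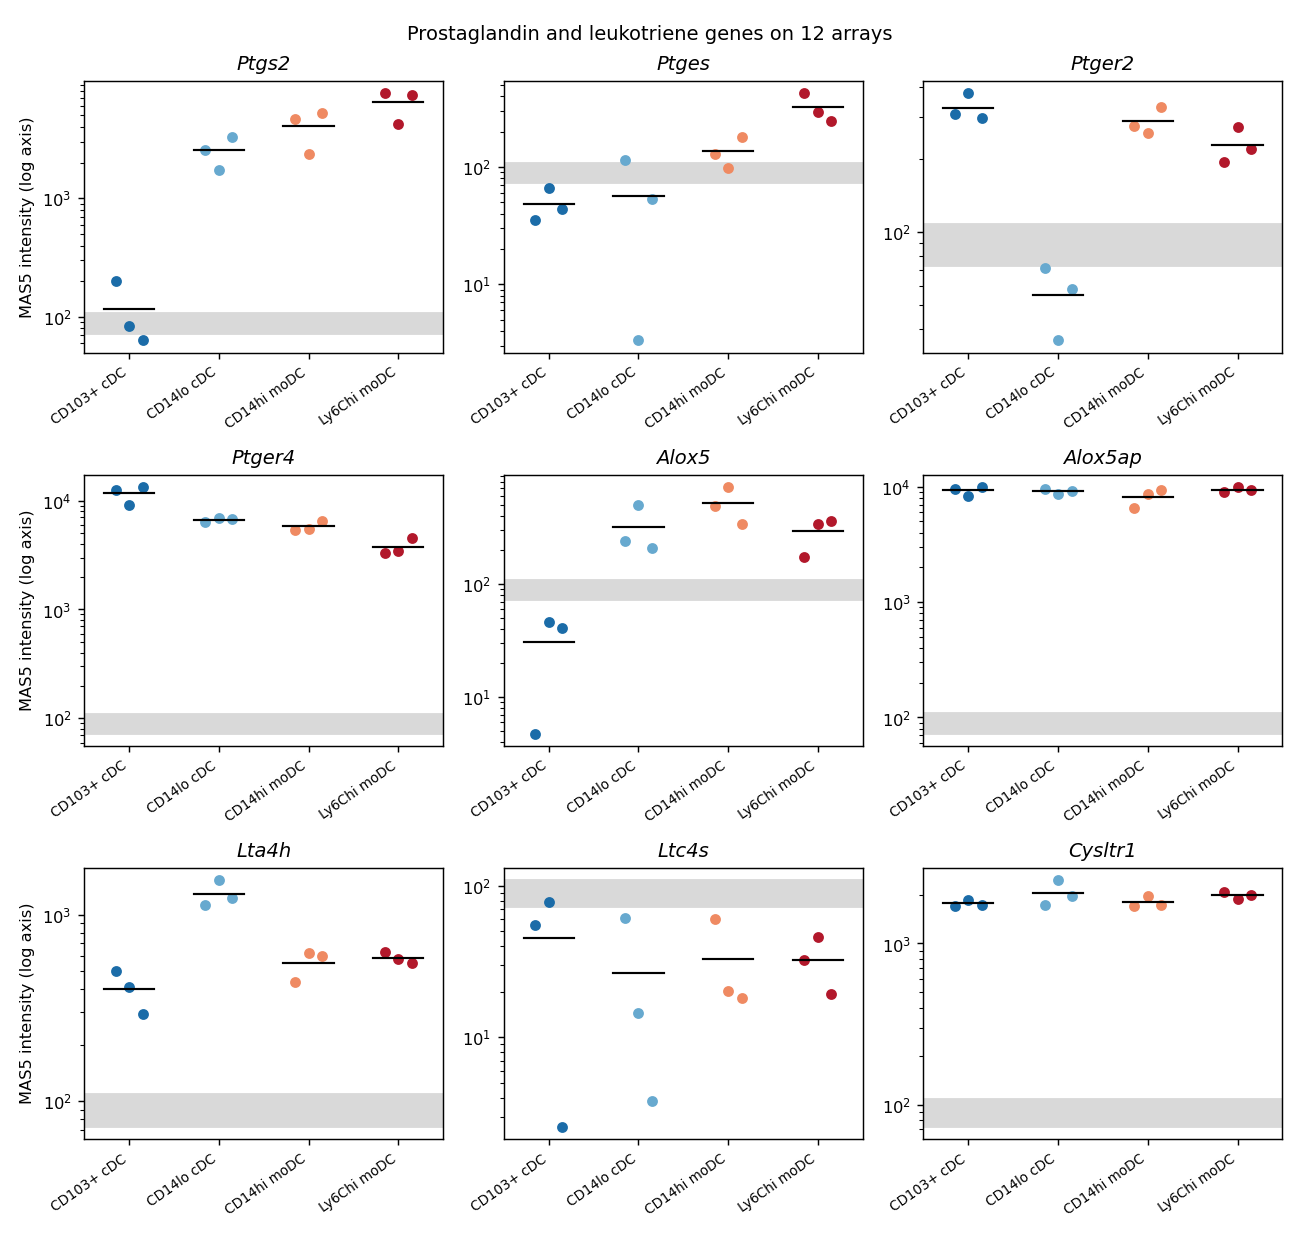
Signals of the 9 measured prostaglandin and leukotriene genes on each of 12 arrays. The horizontal axis names the 4 populations, the vertical axis is MAS5 intensity in arbitrary units on a log axis that differs between panels, points are single arrays, short lines are means of 3 arrays, and the grey band spans the array medians from 72.4 to 109. Ptgs2 and Alox5 are lowest in CD103+ cDC, Ptger2 is lowest and Lta4h highest in CD14lo cDC, and Ptges is highest in Ly6Chi moDC. Alox5ap and Cysltr1 are nearly level, and Ltc4s lies in or under the band on every array.

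Ptgs2 gave the largest differences of the list. On the arrays of CD103+ cDC its signal (probe set 1417263_at) was 202, 84.3 and 63.7, in the CD14lo cDC 2577, 1718 and 3304, in the CD14hi moDC 4647, 2362 and 5225, and in the Ly6Chi moDC 7676, 4222 and 7398. All 9 CD11bhi arrays lay above all 3 CD103+ arrays, on 2 of which the signal was below the array median. The log2 difference of CD103+ cDC was -3.99 ± 0.32 (SE, 3 arrays per population) to CD14lo cDC (15.9-fold lower, adjusted p = 2.4e-08), -4.64 ± 0.32 to CD14hi moDC (25.0-fold, adjusted p = 1.7e-09) and -5.32 ± 0.32 to Ly6Chi moDC (40.0-fold, adjusted p = 1.2e-10). These adjusted p values, and all others of genes, are from limma over all 10929 genes tested, in a fit to log2 signals raised by a pseudocount, which understates the folds of dim genes.

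Among the CD11bhi populations the Ptgs2 means were 2533 ± 794 in CD14lo cDC, 4078 ± 1514 for CD14hi moDC and 6432 ± 1919 for Ly6Chi moDC (SD, n = 3 each). The outer populations of that order differed: Ly6Chi moDC were 2.51-fold higher than CD14lo cDC (log2 difference 1.33 ± 0.32, adjusted p = 0.0044). Neighbours in the order were not called after adjustment. The log2 difference was 0.65 between CD14hi moDC and CD14lo cDC (95% interval -0.03 to 1.32, adjusted p = 0.21). Between Ly6Chi moDC and CD14hi moDC it was 0.68 (0.01 to 1.35, adjusted p = 0.16). Replicate 2 was the lowest of its population in all 3 CD11bhi populations. Without CD14hi moDC replicate 2 the former pair was called (log2 difference 0.99, adjusted p = 0.049), and with replicate number as a block the latter was (0.68, adjusted p = 0.043). A second probe set, 1417262_at, gave means of 196, 2403, 3651 and 6315 in the same order of populations, and the same calls in all 6 comparisons. The summed neutrophil markers given above were likewise highest in Ly6Chi moDC, and their part in the Ptgs2 order was not tested.

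Ptges was above the array median on all 3 arrays of Ly6Chi moDC and on all 3 of no other population. Its signal (1449450_at) was 35.6, 65.9 and 44.1 in CD103+ cDC, 113, 3.34 and 53.2 in the CD14lo cDC, 128, 98.1 and 181 in the CD14hi moDC and 423, 296 and 247 in the Ly6Chi moDC. It exceeded the array median on 6 of 12 arrays, among them all those of Ly6Chi moDC, which alone were enough for it to be tested. The Ly6Chi arrays lay above all others. Ly6Chi moDC were 3.73-fold higher than CD103+ cDC (log2 difference of CD103+ cDC minus Ly6Chi moDC -1.90 ± 0.32, adjusted p = 8.2e-05), 3.78-fold higher than CD14lo cDC (1.92 ± 0.32, adjusted p = 1.7e-04) and 2.00-fold higher than CD14hi moDC (1.00 ± 0.32, adjusted p = 0.038). The last call was lost under 6 alternatives, among them leaving out Ly6Chi moDC replicate 1 (log2 difference 0.81, adjusted p = 0.16). CD14hi moDC were 1.87-fold higher than CD103+ cDC (adjusted p = 0.035), a call lost under 9 alternatives, with adjusted p = 0.13 without CD14hi moDC replicate 3. CD14hi moDC were not called against CD14lo cDC (log2 difference 0.92, 95% interval 0.24 to 1.60, adjusted p = 0.062), where 1 array at 113 overlapped, but were without that array, CD14lo cDC replicate 1 (1.30, adjusted p = 0.0076). The 2 other Ptges probe sets were dimmer still and did not pass the filter. Their means were 85.8 and 68.6 in the Ly6Chi moDC, 49.3 and 54.7 in the CD14hi moDC and at most 18.5 in both cDC populations. On both, arrays of Ly6Chi moDC and CD14hi moDC overlapped. They ran from 59.9 to 114 against 27.2 to 85.2, and from 44.3 to 89.2 against 48.6 to 60.0.

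The prostaglandin E2 receptor genes did not follow the synthesis genes, nor each other. Ptger2 (1449310_at) had signals of 307, 375 and 296 in CD103+ cDC, 71.4, 35.8 and 58.3 in the CD14lo cDC, 275, 258 and 330 in the CD14hi moDC and 195, 273 and 221 in the Ly6Chi moDC. The CD14lo cDC stood alone at the bottom, with every array under the array median, and the 9 other arrays were at 195 or more. CD14lo cDC were 3.59-fold lower than CD103+ cDC (log2 difference of CD103+ cDC 1.85 ± 0.20, adjusted p = 1.4e-06), 3.23-fold lower than CD14hi moDC (adjusted p = 8.4e-06) and 2.67-fold lower than Ly6Chi moDC (adjusted p = 3.1e-05). No difference was called among the other 3 populations. The log2 differences of CD103+ cDC were 0.16 to CD14hi moDC (95% interval -0.27 to 0.58) and 0.43 to Ly6Chi moDC (0.003 to 0.86, adjusted p = 0.092). In the latter comparison the arrays did not overlap.

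Ptger4 ran the opposite way to Ptgs2. Its signal (1424208_at) was 12575, 9122 and 13380 in CD103+ cDC, 6326, 6883 and 6757 in the CD14lo cDC, 5376, 5524 and 6509 in the CD14hi moDC and 3280, 3433 and 4518 in the Ly6Chi moDC. All CD103+ arrays were above all others and all Ly6Chi arrays below all others, while the arrays of CD14lo cDC and CD14hi moDC overlapped. CD103+ cDC were higher by 1.73-fold over CD14lo cDC (log2 difference 0.79 ± 0.15, adjusted p = 6.9e-04), 1.99-fold over CD14hi moDC (adjusted p = 4.8e-05) and 3.08-fold over Ly6Chi moDC (1.63 ± 0.15, adjusted p = 6.0e-08). Ly6Chi moDC were lower by 1.78-fold than CD14lo cDC (adjusted p = 4.1e-04) and by 1.55-fold than CD14hi moDC (adjusted p = 0.0062). The latter call was lost with each array centred at its median (log2 difference -0.42, adjusted p = 0.12). CD14hi moDC minus CD14lo cDC was -0.20 (95% interval -0.52 to 0.12). The second probe set, 1421073_a_at, gave means of 4084, 2310, 1871 and 1275 and the same 5 calls. Without the CD103+ arrays of the highest Gapdh ratio, replicates 1 and 3, a lone CD103+ array of 9122 remained and its difference from CD14lo cDC was no longer called (log2 difference 0.45, adjusted p = 0.13).

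**Figure D2:**
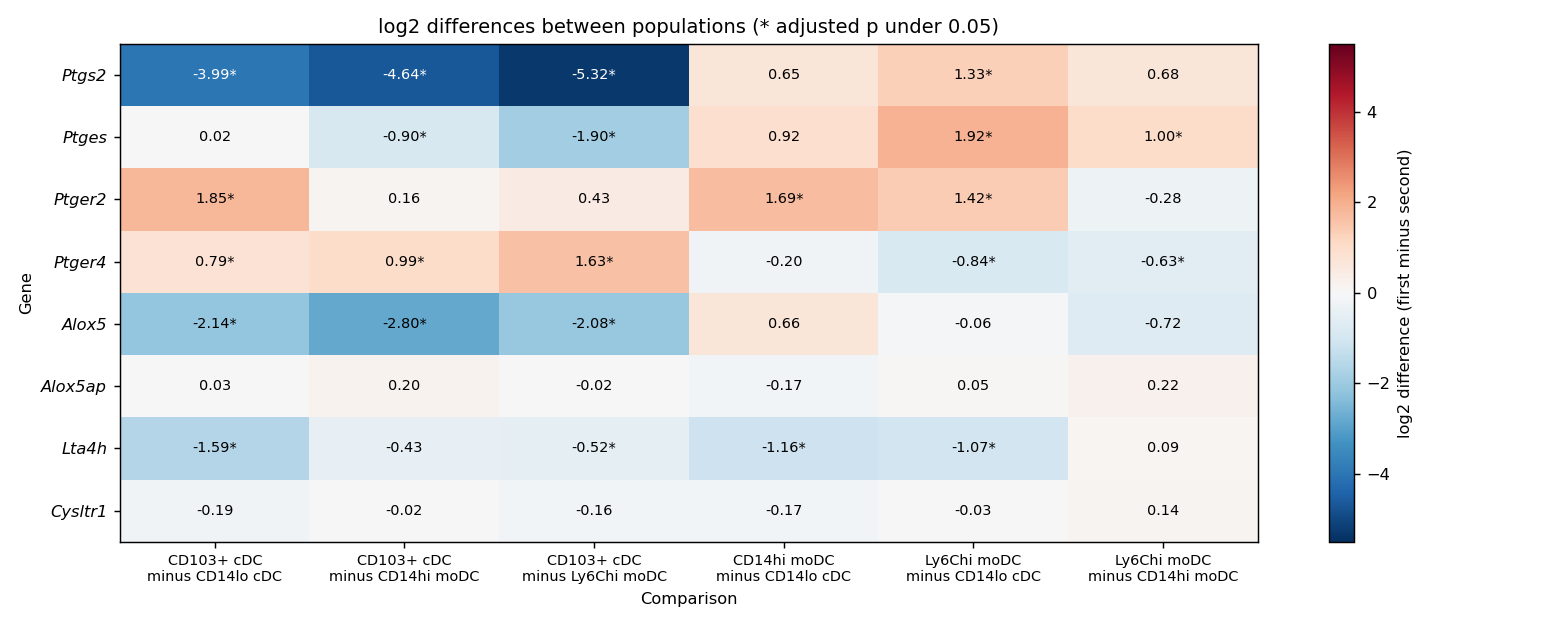
Differences of the 8 tested genes in 6 comparisons. Rows are genes, columns are comparisons, colour and printed value are the log2 difference of the first population minus the second (3 arrays each), and a star marks an adjusted p under 0.05 from limma. The largest differences are those of Ptgs2 in CD103+ cDC (-3.99 to -5.32), and the rows of Alox5ap and Cysltr1 hold no star.

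In the leukotriene branch Alox5 was called in 3 comparisons and its partner Alox5ap in 0. Alox5 (1441962_at) had signals of 4.77, 46.6 and 40.9 in CD103+ cDC, 242, 500 and 207 in the CD14lo cDC, 486, 723 and 341 in the CD14hi moDC and 173, 339 and 365 in the Ly6Chi moDC. The CD103+ arrays were below their array medians and did not overlap the others, whose ranges overlapped among themselves. CD103+ cDC were 4.41-fold lower than CD14lo cDC (log2 difference -2.14 ± 0.33, adjusted p = 6.0e-05), 6.96-fold lower than CD14hi moDC (-2.80 ± 0.33, adjusted p = 1.7e-06) and 4.22-fold lower than Ly6Chi moDC (-2.08 ± 0.33, adjusted p = 3.4e-05). Within the CD11bhi populations no difference was called, with log2 differences of 0.66 for CD14hi moDC minus CD14lo cDC (95% interval -0.03 to 1.34) and -0.72 for Ly6Chi moDC minus CD14hi moDC (-1.41 to -0.04, adjusted p = 0.14). The gene had 1 probe set, so no second one checks this.

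Alox5ap (1452016_at) was between 6500 and 9967 on all 12 arrays. Its means were 9294 ± 833 in CD103+ cDC, 9090 ± 438 in the CD14lo cDC, 8165 ± 1499 in the CD14hi moDC and 9429 ± 497 in the Ly6Chi moDC (SD, n = 3 each). No comparison was called, and the widest difference, of Ly6Chi moDC minus CD14hi moDC, was 0.22 (95% interval -0.06 to 0.50, adjusted p = 0.29), in which CD14hi moDC replicate 1 at 6500 was the low array. The intervals of all 6 comparisons lay within -0.45 and 0.50 on the log2 scale.

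Lta4h, the gene of the enzyme that makes leukotriene B4, was highest in CD14lo cDC. Its signal (1434790_a_at) was 500, 409 and 292 in CD103+ cDC, 1123, 1528 and 1225 in the CD14lo cDC, 434, 623 and 602 in the CD14hi moDC and 628, 575 and 548 in the Ly6Chi moDC. Every CD14lo array was above every other array. CD14lo cDC were 3.01-fold higher than CD103+ cDC (log2 difference of CD103+ cDC -1.59 ± 0.20, adjusted p = 5.5e-06), 2.23-fold higher than CD14hi moDC (adjusted p = 3.3e-04) and 2.10-fold higher than Ly6Chi moDC (adjusted p = 3.9e-04). CD103+ cDC were also called lower than Ly6Chi moDC (1.43-fold, adjusted p = 0.036), a call lost under 8 alternatives, among them leaving out CD103+ cDC replicate 3 (log2 difference -0.33, adjusted p = 0.19) or Ly6Chi moDC replicate 1 (-0.47, adjusted p = 0.11). Against CD14hi moDC they were not called (log2 difference -0.43, adjusted p = 0.093), except with the second probe set, 1426807_at (-0.72, adjusted p = 0.0081), and under 3 other alternatives. The second probe set had means of 117, 404, 224 and 188 from CD103+ cDC to Ly6Chi moDC, again highest in CD14lo cDC. A further one, 1453528_at, did not pass the filter.

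Ltc4s, the gene of leukotriene C4 synthase, was at 55.5, 78.5 and 2.56 in CD103+ cDC, 61.3, 14.5 and 3.78 in the CD14lo cDC, 60.8, 20.3 and 18.3 in the CD14hi moDC and 32.4, 46.1 and 19.2 in the Ly6Chi moDC (1419692_a_at). It was at or under the array median on all 12 arrays and therefore not tested. With no filter, its log2 differences were 0.01 to 0.30 in size and the lowest adjusted p was 0.63. Whether its message was absent or below what this probe set detects was not tested.

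Cysltr1, the gene of a cysteinyl leukotriene receptor, was by contrast well above the array medians everywhere. Its means (1418944_at) were 1774 ± 84.9 in CD103+ cDC, 2058 ± 376 in the CD14lo cDC, 1808 ± 145 in the CD14hi moDC and 1991 ± 105 in the Ly6Chi moDC (SD, n = 3 each), and single arrays ran from 1710 to 2467. No comparison was called, and the 95% intervals of the 6 log2 differences lay within -0.50 and 0.44. The second probe set, 1449282_at, was called lower in CD103+ cDC than in Ly6Chi moDC (log2 difference -0.45, adjusted p = 0.049), where the first gave -0.16 (adjusted p = 0.38). The mean of the probe sets was called there too (-0.31, adjusted p = 0.045). On the first probe set the arrays of these populations did not overlap, at 1710 to 1871 against 1888 to 2098.

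**Figure D3:**
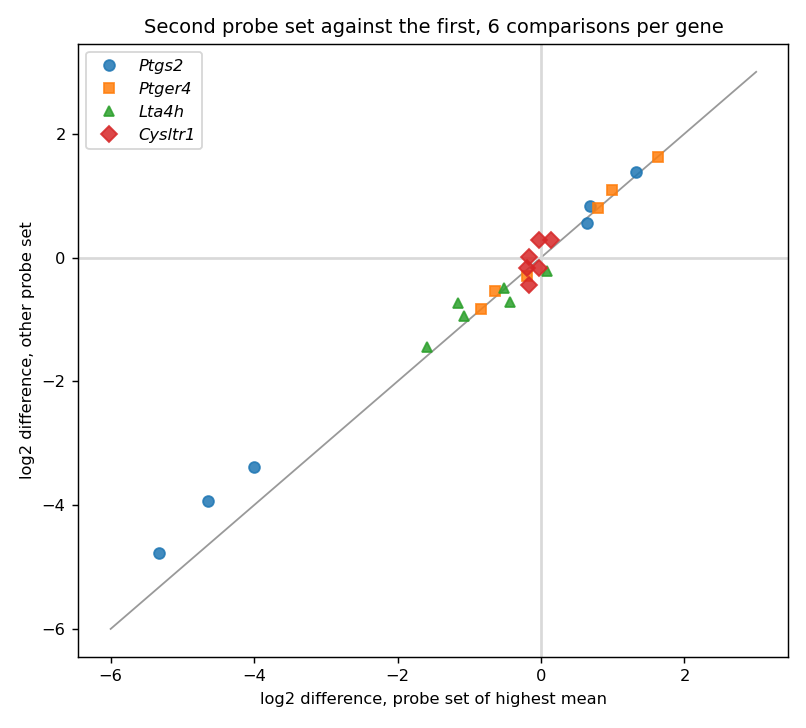
Agreement between probe sets of the 4 genes with a second probe set that passed the filter. Each point is 1 of 6 comparisons, the horizontal axis is the log2 difference from the probe set of the highest mean, the vertical axis that from the other probe set, and the grey diagonal marks equality. Ptgs2 and Ptger4 points lie near the diagonal with the same sign in all 6 comparisons each, while the Cysltr1 points, all between -0.50 and 0.50 on both axes, do not keep a sign.

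Counted over the 8 tested genes, 6 were called in at least 1 of the 6 comparisons, as were 60.0% of all tested genes. In CD103+ cDC against CD14lo cDC, 28.7% of all tested genes were called, 13.4% higher and 15.3% lower, and of the listed genes 2 were higher and 3 lower. Against CD14hi moDC 1 was higher and 3 lower (37.2% of all tested genes called, 16.9% higher and 20.3% lower). Against Ly6Chi moDC 1 was higher and 4 lower (47.5% of all, 23.2% higher and 24.3% lower).

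Within the CD11bhi populations, CD14hi moDC against CD14lo cDC gave 1 higher, Ptger2, and 1 lower, Lta4h (16.2% of all tested genes called, 9.24% higher and 6.95% lower). Ly6Chi moDC against CD14lo cDC gave 3 higher, Ptgs2, Ptges and Ptger2, and 2 lower, Ptger4 and Lta4h (25.2% of all, 11.2% higher and 14.0% lower). Ly6Chi moDC against CD14hi moDC gave 1 higher, Ptges, and 1 lower, Ptger4 (18.2% of all, 6.82% higher and 11.4% lower).

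The arrays of the populations compared did not overlap for 5, 4, 7, 2, 5 and 2 of the 8 genes in these 6 comparisons in the same order, and for 39.2%, 45.8%, 53.3%, 32.5%, 39.5% and 36.0% of all tested genes. The median absolute log2 difference of the 8 genes was 1.19, 0.67, 1.07, 0.65, 0.95 and 0.46, against 0.30, 0.36, 0.45, 0.23, 0.27 and 0.25 over all tested genes. Comparisons that share a population share its arrays and are not independent.

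Ptgs2 and Alox5 were called lower in CD103+ cDC than in each other population, as were 9.95% of all tested genes, and Ptger4 higher, as were 9.47%. Lta4h was called higher in CD14lo cDC than in each other population (1.35% of all), and Ptger2 lower (0.686%). Ptges was called higher in Ly6Chi moDC than in each other population (3.39%), although its call against CD14hi moDC was lost as given above, and Ptger4 lower (6.52%). None of the 8 was called higher or lower in CD14hi moDC than in each other population, against 1.97% and 0.595% of all.

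The rest of the eicosanoid pathway was described from a list of 42 genes, of which 38 had a probe set and 21 were tested. The other genes with a probe set were too dim to test, among them Ptgds, Ptgis, Ptgdr, Ptgdr2, Cysltr2, Oxgr1 and all 5 listed lipoxygenases besides Alox5. Of the 21, 1 was called higher and 8 lower in CD103+ cDC against CD14lo cDC (28.7% of all tested genes: 13.4% higher, 15.3% lower). Against CD14hi moDC 1 was higher and 12 lower (37.2% of all: 16.9% higher, 20.3% lower). Against Ly6Chi moDC 3 were higher and 10 lower (47.5% of all: 23.2% higher, 24.3% lower). In CD14hi moDC against CD14lo cDC 6 were higher and 2 lower (16.2% of all: 9.24% higher, 6.95% lower). In Ly6Chi moDC against CD14lo cDC these were 5 and 2 (25.2% of all: 11.2% higher, 14.0% lower). In Ly6Chi moDC against CD14hi moDC they were 3 and 5 (18.2% of all: 6.82% higher, 11.4% lower). The counts include Ptger3, lower in each comparison against CD14lo cDC, and Slco2a1, higher in CD103+ cDC against Ly6Chi moDC. Ptger3 was tested only because of CD14lo cDC arrays and Slco2a1 only because of cDC arrays, so those calls are descriptions.

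Upstream of the cyclooxygenases, Pla2g4a, the gene of cytosolic phospholipase A2, followed the order of Ptgs2. Its signal was 257, 377 and 283 in CD103+ cDC, 688, 450 and 471 in the CD14lo cDC, 1405, 1182 and 1109 in the CD14hi moDC and 1883, 1723 and 1840 in the Ly6Chi moDC, with no overlap between any populations. It was called in all 6 comparisons, 5.30-fold lower in CD103+ cDC than in Ly6Chi moDC (log2 difference -2.41 ± 0.18, adjusted p = 2.6e-09) and, at the margin, 1.46-fold higher in Ly6Chi moDC than in CD14hi moDC (adjusted p = 0.043, lost under 9 alternatives, with values of up to 0.15). The secreted phospholipase gene Pla2g12a, at 26.0 to 46.1 in CD103+ cDC and 79.5 to 173 elsewhere, was also lower in CD103+ cDC than in each other population (1.71-fold to 2.22-fold). The smallest of these, to Ly6Chi moDC (adjusted p = 0.010), was lost without Ly6Chi moDC replicate 2 (adjusted p = 0.063). Without CD103+ cDC replicates 1 and 3, neither Pla2g4a against CD14lo cDC (adjusted p = 0.26) nor Pla2g12a against both moDC populations (adjusted p = 0.075 and 0.14) was called. Plaat3, which encodes a phospholipase A and acyltransferase, ran against both: CD103+ cDC had 6778, 4682 and 5240 and no other array more than 1586, a difference of 4.46-fold to CD14lo cDC (adjusted p = 4.5e-08) and 6.67-fold to Ly6Chi moDC (adjusted p = 4.9e-10).

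Of 4 other prostanoid synthase genes tested, Hpgds, Prxl2b and the thromboxane synthase gene Tbxas1 were each called in 4 comparisons and Ptges2 in 0 (adjusted p of at least 0.27). Tbxas1 was lower in CD103+ cDC than in CD14hi moDC (1.67-fold, adjusted p = 0.0021) and Ly6Chi moDC (1.91-fold, adjusted p = 1.9e-04), and was not called against CD14lo cDC (adjusted p = 0.55). Hpgds, the haematopoietic prostaglandin D synthase gene, was at 1079, 1131 and 909 in the CD14hi moDC and at most 283 on any other array. CD14hi moDC were 4.45-fold higher than CD103+ cDC (adjusted p = 4.8e-06), 5.45-fold higher than CD14lo cDC (adjusted p = 3.5e-06) and 8.02-fold higher than Ly6Chi moDC (adjusted p = 2.1e-07). Mast cells also hold much Hpgds. The 9 mast cell and basophil markers had means of 5.31 to 72.7 in CD14hi moDC and a summed signal of 207 to 264, against 165 to 285 in CD103+ cDC, 160.0 to 193 in CD14lo cDC and 173 to 265 in Ly6Chi moDC. Of these markers, Cpa3 was at 23.8 in CD14hi moDC and at most 8.96 elsewhere. Mcpt4 went the other way, at 8.57 in CD14hi moDC and 28.5 in CD103+ cDC. Cpa3, Tpsab1, Fcer1a and Gata2 had their highest mean in CD14hi moDC, and Mcpt8, Mcpt4, Tpsb2, Cma1 and Ms4a2 in another population. All 9 were below the array median on at least 1 array of each population. Prxl2b, described as a prostaglandin F synthase gene, was at 1008 to 1688 in both monocyte-derived populations and at most 553 in both conventional ones, and 4.68-fold higher in Ly6Chi moDC than in CD14lo cDC (log2 difference 2.23 ± 0.20, adjusted p = 1.0e-07).

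Of 5 tested genes of prostaglandin inactivation and transport, Hpgd and Ptgr1 were called lower in CD103+ cDC than in each other population. The reductase gene Ptgr2 was lower than in both moDC populations (adjusted p = 0.0018 and 0.0079) but not called against CD14lo cDC (adjusted p = 0.069). The transporter gene Slco2a1 was higher in CD103+ cDC than in Ly6Chi moDC (1.61-fold, adjusted p = 0.029). It exceeded the array median on 3 of 12 arrays, none of them of moDC, where its highest signal was 71.5. Since Slco2a1 was tested only because of cDC arrays, that difference is a description. Abcc4 was not called in any comparison. Hpgd encodes the dehydrogenase that begins the inactivation of prostaglandin E2. Its signal was 71.1, 63.4 and 60.0 in CD103+ cDC, 1006, 1898 and 1615 in the CD14lo cDC, 2099, 2238 and 1745 in the CD14hi moDC and 666, 954 and 1460 in the Ly6Chi moDC. CD103+ cDC lay under the array medians and were 13.1-fold, 18.0-fold and 8.96-fold lower than the 3 others in that order (log2 differences -3.72 ± 0.24, -4.17 ± 0.24 and -3.16 ± 0.24, adjusted p = 1.7e-09, 1.7e-10 and 3.5e-09). Among the CD11bhi populations its order was not that of Ptgs2, since Ly6Chi moDC were 2.01-fold lower than CD14hi moDC (adjusted p = 0.0062). Ptgr1, a reductase gene of prostaglandin and leukotriene B4 inactivation, rose in the same order as Pla2g4a, with means of 121 ± 22.6, 257 ± 45.1, 426 ± 24.2 and 730 ± 60.2 (SD, n = 3 each), and was called in all 6 comparisons. The smallest of these, CD14hi moDC over CD14lo cDC (1.56-fold, adjusted p = 0.019), was lost with median centring (adjusted p = 0.064) and without any one of CD14lo cDC replicates 1 and 2 and CD14hi moDC replicates 2 and 3 (adjusted p of at most 0.081).

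Of 4 other receptor genes tested, Ptgir and Ptger3 were called in some comparisons and Ptger1 and Ltb4r1 in 0. Ptgir, the prostacyclin receptor gene, was at 52.1, 52.1 and 10.3 in CD103+ cDC and between 531 and 809 on the 9 CD11bhi arrays, a 7.57-fold to 8.80-fold difference (adjusted p of at most 2.1e-09). The CD11bhi populations were not called against each other. Ptger3, the gene of a further prostaglandin E2 receptor, was at 177, 177 and 118 in the CD14lo cDC and under the array median everywhere else. It was tested only because of those 3 arrays, so that its higher level there is a description. Ltb4r1, the leukotriene B4 receptor gene, was at means of 573 to 716.

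Cyp4f18, the gene of an enzyme that oxidises leukotriene B4, was at 12.4, 14.9 and 3.04 in CD103+ cDC, 453, 664 and 649 in the CD14lo cDC, 685, 628 and 851 in the CD14hi moDC and 1580, 1706 and 2023 in the Ly6Chi moDC. CD103+ cDC were 10.5-fold lower than CD14lo cDC and 30.2-fold lower than Ly6Chi moDC (log2 difference -4.92 ± 0.19, adjusted p = 5.3e-13), and Ly6Chi moDC 2.36-fold higher than CD14hi moDC (adjusted p = 1.2e-04). Its second probe set was much dimmer and gave a log2 difference of -0.30 in that last comparison (adjusted p = 0.51), against 1.24 for the first. It called CD103+ cDC lower than CD14hi moDC (-0.80, adjusted p = 0.022) but not than CD14lo cDC (-0.17, adjusted p = 0.70) or Ly6Chi moDC (-0.50, adjusted p = 0.13). Among the other tested genes of leukotriene conversion, inactivation and transport, Abcc1 was called in 0 comparisons and Ggt5 in 3. Ggt5 was lower than in CD14lo cDC both in CD103+ cDC (2.61-fold, adjusted p = 6.2e-05) and in CD14hi moDC (2.01-fold, adjusted p = 0.0023). It was also lower in CD103+ cDC than in Ly6Chi moDC (1.83-fold, adjusted p = 0.0022). Dpep1, a dipeptidase gene whose product converts leukotriene D4 to E4, was at 403, 328 and 281 in the CD14hi moDC and at most 116 elsewhere. There it was 3.46-fold higher than in CD14lo cDC (adjusted p = 7.3e-05). The summed signal of 5 fibroblast markers was also highest in CD14hi moDC, at 4637 to 5501. It was 2801 to 4448 for Ly6Chi moDC and at most 2137 and 1773 in CD103+ cDC and CD14lo cDC. The number of these markers above the array median on all 3 arrays was 4 in CD14hi moDC, 5 in Ly6Chi moDC and 3 in each cDC population. The summed signal of 5 platelet markers was 368 to 449 in CD14hi moDC and at most 291 elsewhere, with Ppbp at a mean of 233 against at most 80.6. Only Ppbp had its highest mean in CD14hi moDC. Itga2b, Gp9, Gp1bb and Gp6 each had a higher mean in another population, as Itga2b with 96.6 in CD14lo cDC against 80.2 in CD14hi moDC. The part of these markers in the Dpep1 and Hpgds values was not tested.

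**Figure D4:**
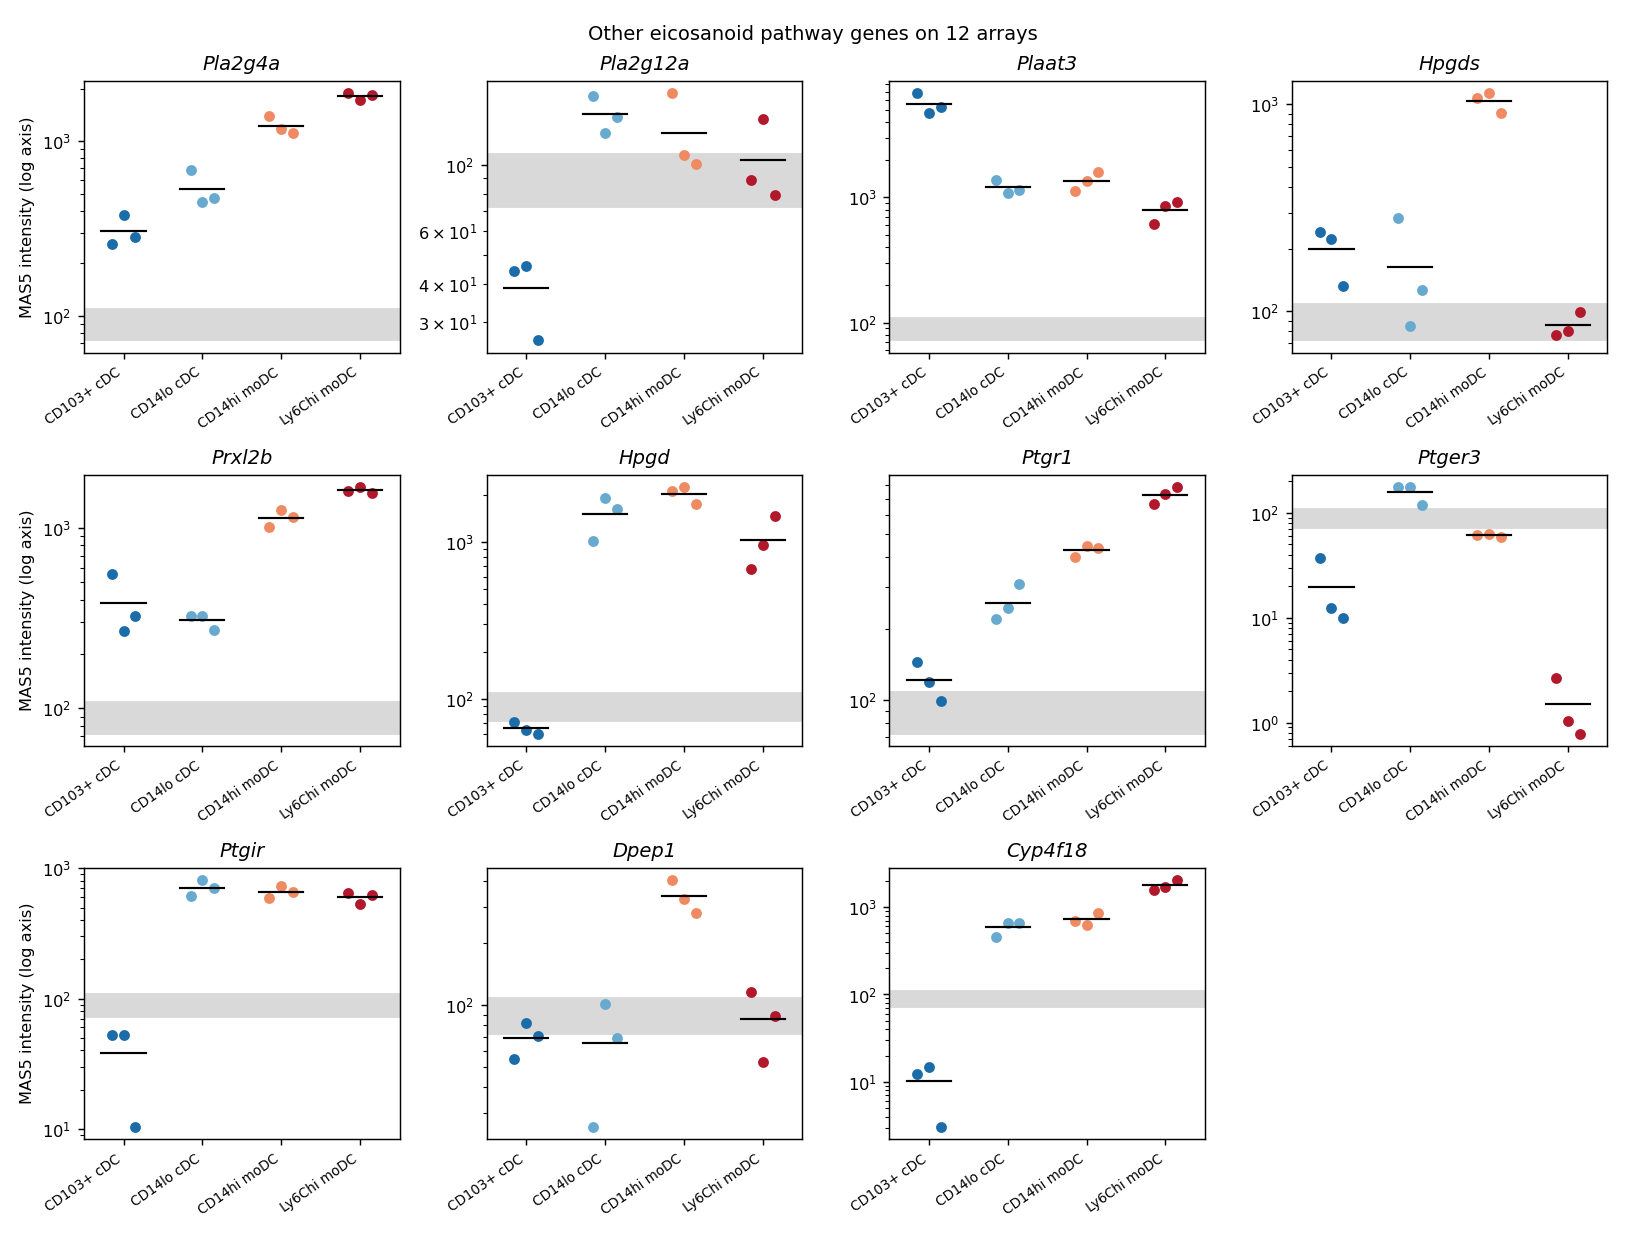
Signals of the 11 other genes of the eicosanoid pathway that were named by rule, on each of 12 arrays. Axes, points, lines and the grey band of array medians are as in the plot of the 9 listed genes, with a log axis of its own in each panel. Hpgd, Ptgir and Cyp4f18 lie under or near the band in CD103+ cDC, where Plaat3 is highest, Hpgds and Dpep1 stand out in CD14hi moDC, and Pla2g4a and Ptgr1 step up from CD103+ cDC to Ly6Chi moDC.

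By Pearson correlation of log2 signals over the 12 arrays, the tested genes most like Ptgs2 were Plaur (0.99), the urokinase receptor gene, and the transcription factor gene Zeb2 (0.98). Nearest to Ptges were Gpnmb (0.96) and Fuom (0.94), and to Ptger2 Rab7b (0.97) and Rnf180 (0.94). Ptger4 was most like Appl1 (0.99) and Cdca8 (0.98), Alox5 most like Cd33 (0.96) and Xylb (0.95), and Lta4h most like Ccdc88c (0.96) and the lectin gene Clec10a (0.95). Among the listed genes themselves, Ptger2 and Lta4h had the lowest correlation (-0.92), Ptgs2 and Ptger4 the next (-0.87), and Ptgs2 and Alox5 the highest (0.78). These values describe 12 arrays in 4 sorted populations and mostly restate how the populations differ.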

How the data were processed

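RNA from 12 samples, 3 of each of 4 sorted lung populations (purity over 93% per the labels), was amplified from 50 ng and biotin labelled, per the labels' protocols. The deposited unit is linear intensity from MAS5, per the submitters' processing notes, and the authors had scaled every array to a 2% trimmed mean of 500.003. Their MAS5 version is unstated in those notes.

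A probe set was kept where it exceeded its array's median on at least 3 of 12 arrays (25138 of 45101), and probe sets with exactly 1 symbol were used. Means per population were fitted to log2(intensity + 50.0003) with limma 3.58.1 (eBayes, intensity trend, 8 residual degrees of freedom) in R 4.3.3, two-sided, with Benjamini-Hochberg adjustment over 10929 genes in each of 6 comparisons and calls under 0.05. The script was tested on simulated data. Figures used matplotlib 3.10.9.

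The genes, lists and tests were chosen with earlier results of these data known. By rule, all listed genes were named, and other pathway genes called one way against all 3 other populations or among the 3 largest non-overlapping calls of a comparison. Further tested pathway genes, such as Tbxas1, Ptgr2 and Ggt5, were named outside this rule and not run through the named-gene alternatives. For each called listed gene, the 2 best-correlated genes are named. Alternatives covered scaling, pseudocount (2% and 20% of the trimmed mean, in place of 10%), filter, probe set choice, arrays in the fit, trend, replicate block and leaving out arrays. No label says that equal replicate numbers share mice.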

Additional observations from a re-analysis of the deposited data

How the results depend on the processing

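Of the log2 differences of the listed genes under all alternatives, 1130 kept their call or its absence, 25 lost the call and 9 gained one. Of all these, 0 changed direction while called. Differences that stayed uncalled were counted as kept whatever their sign, and so were those of Ltc4s, which had no main test. For example, Ptges in CD103+ cDC minus CD14lo cDC ran from -0.41 to 0.40 as single arrays were left out. For the other pathway genes named by rule 1533 were kept in this sense, 40 lost and 10 gained a call, and 1 reversed. The reversed one was Cyp4f18 in Ly6Chi moDC minus CD14hi moDC with its dim second probe set (-0.30). With the filter at the 75th percentile, which left 7061 genes and dropped Ptges, Ptger2 and Alox5, the count of listed genes called was 3 for CD103+ cDC against CD14lo cDC, 2 against CD14hi moDC and 3 against Ly6Chi moDC, 1 for CD14hi moDC and 3 for Ly6Chi moDC against CD14lo cDC, and 1 for Ly6Chi moDC against CD14hi moDC. For Ly6Chi moDC against CD14hi moDC it was also 1 instead of 2 with median centring, with the smaller pseudocount and with no filter. Leaving out each array in turn gave 3 to 4, 5 to 5, 4 to 5, 2 to 3, 1 to 2 and 5 to 5 listed genes for CD103+ cDC against CD14hi moDC, CD14lo cDC and Ly6Chi moDC, CD14hi moDC against CD14lo cDC, Ly6Chi moDC against CD14hi moDC and Ly6Chi moDC against CD14lo cDC.

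Without CD103+ cDC replicates 1 and 3, an alternative chosen after seeing the data that leaves a lone array assumed to vary like the others, 1733 genes instead of 3141 were called against CD14lo cDC and 2439 instead of 4066 against CD14hi moDC. Median centring moved the median log2 difference of all genes to 0.21 for Ly6Chi moDC minus CD14hi moDC, and the share of calls that were higher from 37.4% to 69.0%; for Ly6Chi moDC minus CD14lo cDC that share moved from 44.5% to 59.0%, for CD14hi moDC minus CD14lo cDC from 57.1% to 45.6%, for CD103+ cDC minus CD14hi moDC from 45.5% to 54.8% and for CD103+ cDC minus Ly6Chi moDC from 48.8% to 39.2%. Samples were not treated as paired, since no label says so and deviations of equal numbers correlated above 0.1 in 8 of 18 pairs (range -0.11 to 0.24). As 8 of 12 arrays were closest to their own number, a shared batch remains possible. The replicate block called Ptgs2 higher in Ly6Chi moDC than in CD14hi moDC (log2 difference 0.68, adjusted p = 0.043) and changed no other call of a listed gene. Dim genes (Ptges, Alox5 in CD103+ cDC, Ltc4s) are limited by signal near or under the array median.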
